A study of Mus musculus with 23 samples.

Results

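The genes described here are the Toll-like receptors Tlr1, Tlr2, Tlr3, Tlr4, Tlr6, Tlr7, Tlr9 and Tlr13, the co-receptor Cd14 and the adaptor Myd88, measured in mouse cortex by RNA-seq of total RNA depleted of ribosomal RNA. They were taken by gene symbol, and all 10 were found among the 39017 genes of the deposited counts. At 10 weeks of age the animals were 6 wild type (WT, H3f3a+/+), 3 with arginine (G34R), 3 with valine (G34V) and 2 with tryptophan (G34W) in place of glycine 34 of histone H3.3, the product of H3f3a. At postnatal day 7 they were 4 WT and 4 G34R animals. Every mutant was labelled heterozygous, so each also carries a wild-type copy, and the labels name no Cre, transgene or line (the 10-week labels spell the gene Hf3fa). By its title, the study asked how a substitution at this residue changes recruitment of the DNA methyltransferase DNMT3A and leads to neurodegeneration. All 10-week animals were male except G34W replicate 2, whose sex label is female although its title begins with M as those of the males do. Of the 4 animals per genotype at day 7, 2 were male. The labels name each animal by its own number, so replicates are animals, and the 2 libraries of WT replicate 3 at 10 weeks were summed.

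Toll-like receptors are membrane receptors of innate immunity that bind molecules of microbes, and some also bind material released by damaged cells. Tlr1, Tlr2, Tlr4 and Tlr6 act mainly at the cell surface, whereas Tlr3, Tlr7, Tlr9 and Tlr13 bind nucleic acids inside endosomes. After binding, all of them except Tlr3 signal through the adaptor Myd88 to NF-kappaB and interferon regulatory factors, and Tlr3 signals through Ticam1 instead. In the brain these receptors are best known from microglia, the resident macrophages, and Tlr3 is also known from astrocytes and neurons.

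Total counts per library, in M (mega-counts), were 32.3 to 90.1 at 10 weeks and 28.4 to 53.5 at day 7. The 10 genes together received 685 to 2842 counts per library at 10 weeks and 373 to 848 at day 7, so they are lowly expressed genes of bulk cortex. Levels are given as CPM (counts scaled to a common library size of 1 M, with 1 TMM scaling over the 22 animals), and as mean ± SD. A fold change is on the log2 scale with its SE, from edgeR's quasi-likelihood test fitted to all tested genes, and a gene is called changed when its Benjamini-Hochberg adjusted p is under 0.05. At 10 weeks the libraries fell into 2 sets by their share of mitochondrial counts, 0.885 to 1.03% and 1.12 to 1.36%, and all G34R animals lay in the first set and all G34V and G34W animals in the second, while WT libraries lay in both. Counts per gene cannot show the substituted codon, so the genotype labels were not checked here.

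The stretches before the start sites are printed for the lipoprotein receptors Tlr1, Tlr6 and Tlr2 and for Tlr13, which were higher in G34R. That of Myd88, which was not called, is printed so that these genes can be read beside the adaptor. No stretch is given for Cd14, Tlr4 and Tlr7, which were also higher in G34R. They are RefSeq sequences on GRCm38.p6, written 5′ to 3′ on the gene's strand, and they hold up to 250 bases before the RefSeq start, ending before the first annotated exon base. The Tlr6 and Myd88 stretches lie within the longer GENCODE gene models. Capitals mark matches to 3 motifs, searched on both strands over all 250 bases: GAGGAAGT, an ETS-type site bound by PU.1, the macrophage and microglial lineage factor; GAAANNGAA, an interferon response element that can overlap ETS sites; and GGGANTTTC, an NF-kappaB site.
Tlr1, chr5:64933564-64933808, minus strand: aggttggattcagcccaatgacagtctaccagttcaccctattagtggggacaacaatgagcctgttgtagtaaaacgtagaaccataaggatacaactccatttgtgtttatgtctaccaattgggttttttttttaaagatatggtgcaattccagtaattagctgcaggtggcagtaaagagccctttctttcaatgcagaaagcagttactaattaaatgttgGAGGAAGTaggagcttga
Tlr6, chr5:64959167-64959416, minus strand: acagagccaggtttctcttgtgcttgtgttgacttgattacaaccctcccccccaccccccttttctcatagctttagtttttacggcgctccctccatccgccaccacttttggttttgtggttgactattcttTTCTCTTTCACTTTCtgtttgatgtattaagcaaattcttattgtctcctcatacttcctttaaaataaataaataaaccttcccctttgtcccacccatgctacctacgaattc
Tlr2, chr3:83841768-83841858, minus strand: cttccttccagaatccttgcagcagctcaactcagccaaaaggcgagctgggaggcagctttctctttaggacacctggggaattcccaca
Tlr13, chrX:106143025-106143203, plus strand: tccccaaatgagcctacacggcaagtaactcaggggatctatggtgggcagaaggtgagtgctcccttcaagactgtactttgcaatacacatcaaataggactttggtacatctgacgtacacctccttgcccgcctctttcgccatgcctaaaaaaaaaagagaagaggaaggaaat
Myd88, chr9:119340042-119340268, minus strand: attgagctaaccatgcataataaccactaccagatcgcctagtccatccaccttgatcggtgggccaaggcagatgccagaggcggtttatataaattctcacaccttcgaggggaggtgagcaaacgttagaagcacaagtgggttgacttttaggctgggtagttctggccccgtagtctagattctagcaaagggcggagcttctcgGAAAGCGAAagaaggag

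Of 32851 RefSeq start sites, 2.44% held the PU.1 motif, 7.13% the interferon response motif and 0.941% the NF-kappaB motif in the same 250 bases. The printed site of Tlr1 held 1 PU.1 match, beginning at -23 from that start, and the printed site of Tlr6 held 2 overlapping matches to the interferon response motif. Tlr1 and Tlr6 each have a second RefSeq start site, whose 250 bases held none of the 3 motifs. The stretch of Tlr3, which was not called and is not printed, held 1 NF-kappaB match beginning at -211. Myd88 held 1 interferon response match, beginning at -40. The stretches of Tlr2 and Tlr13 held none of the 3 motifs as spelled here. Nor did that of Tlr9, which was not called and is not printed. Other spellings of the sites that these factors bind were not searched, so a window without a match may still hold one. A match describes letters in these windows and was not tested as a binding site.

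The genes lie apart in the genome with 1 exception. On GRCm38, Tlr1 (ENSMUSG00000044827, chromosome 5, 64924679 to 64933563, minus strand) and Tlr6 (ENSMUSG00000051498, chromosome 5, 64952031 to 64960097, minus strand) are neighbours 18467 bases apart. Their transcripts share 454 overlapping sequences of 50 bases, 13.6% of those of Tlr1 and 12.3% of those of Tlr6. Reads that lie wholly within such sequence cannot be assigned to either gene, and values of this pair carry that uncertainty. How many reads this concerns depends on read length and pairing, which were not examined. Tlr2 (ENSMUSG00000027995) lies on chromosome 3 at 83836272 to 83841767, minus strand, Tlr4 (ENSMUSG00000039005) on chromosome 4 at 66827584 to 66930284, plus strand, and Cd14 (ENSMUSG00000051439) on chromosome 18 at 36725067 to 36726798, minus strand. Tlr3 (ENSMUSG00000031639) lies on chromosome 8 at 45395665 to 45411080, minus strand, and Tlr9 (ENSMUSG00000045322) on chromosome 9 at 106222598 to 106226883, plus strand. Tlr7 (ENSMUSG00000044583, 167304929 to 167330558, minus strand) and Tlr13 (ENSMUSG00000033777, 106143204 to 106160493, plus strand) are on chromosome X, and Myd88 (ENSMUSG00000032508) is on chromosome 9 at 119335934 to 119341411, minus strand. Of the exonic bases of Myd88, 11.3% overlap exons of Acaa1a on the opposite strand, and of those of Tlr3, 7.32% overlap Gm45542. The strand setting of the counting is not given in the sources used here, so reads of these overlaps cannot be told apart.

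In WT cortex the endosomal receptor Tlr3 and the adaptor Myd88 had the highest levels per length and the lipoprotein co-receptors Tlr1 and Tlr6 the lowest. In units of CPM per kilobase of exon, the mean level at 10 weeks was 1.51 ± 0.238 for Tlr3 and 1.43 ± 0.157 for Myd88 (SD, n = 6). Cd14 followed at 0.955 ± 0.233, and its range did not reach that of Tlr7, the next gene, at 0.526 ± 0.0756. Tlr13, Tlr4 and Tlr2 lay between 0.356 and 0.448, with ranges that overlapped each other, and Tlr9 was at 0.258. Tlr6 was at 0.122 ± 0.0512 and Tlr1 at 0.0837 ± 0.0304, and their ranges overlapped.

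**Figure D1:**
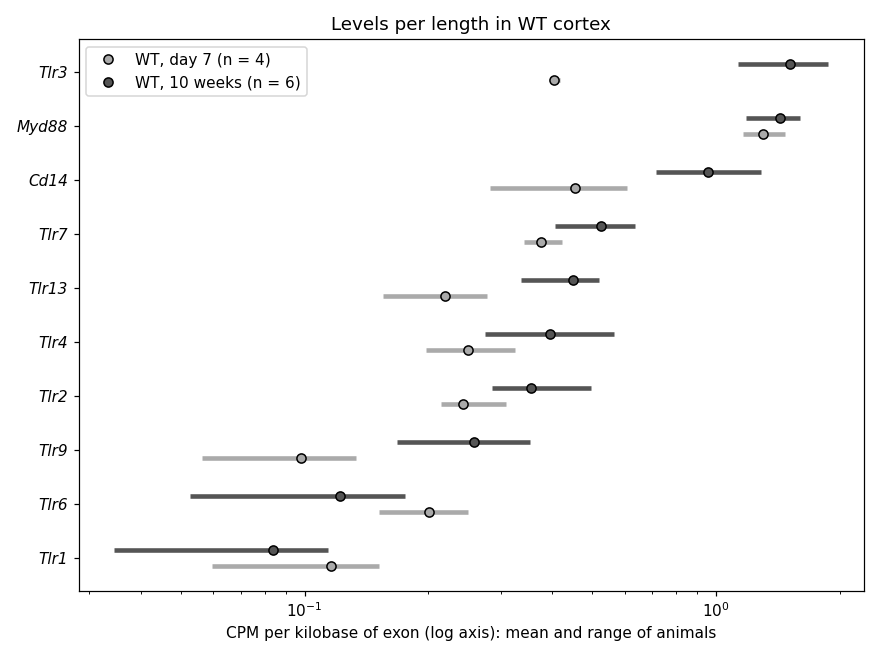
Level per length of the 10 genes in WT cortex, in CPM per kilobase of exon on a log axis, as the mean (point) and range (bar) of 6 animals at 10 weeks (dark) and 4 at day 7 (light). At 10 weeks Tlr3 and Myd88 are highest at 1.51 and 1.43 and Tlr1 lowest at 0.0837, while at day 7 Myd88 stands alone at the top at 1.3.

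The first comparison asked which of these genes differ from WT in G34R cortex at 10 weeks. Of the 10 genes, 7 were called higher and none lower, against 2.92% of the 21288 tested genes called higher. Those 7 were Tlr1, Tlr2, Tlr6, Tlr4, Cd14, Tlr7 and Tlr13, and Tlr3, Tlr9 and Myd88 were not called. The median log2 fold change of the 10 genes was 0.997, beside -0.00348 over all tested genes. In 6 of them (all of the 7 except Tlr6) every G34R animal lay above every WT animal, as 6.05% of all tested genes did.

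**Figure D2:**
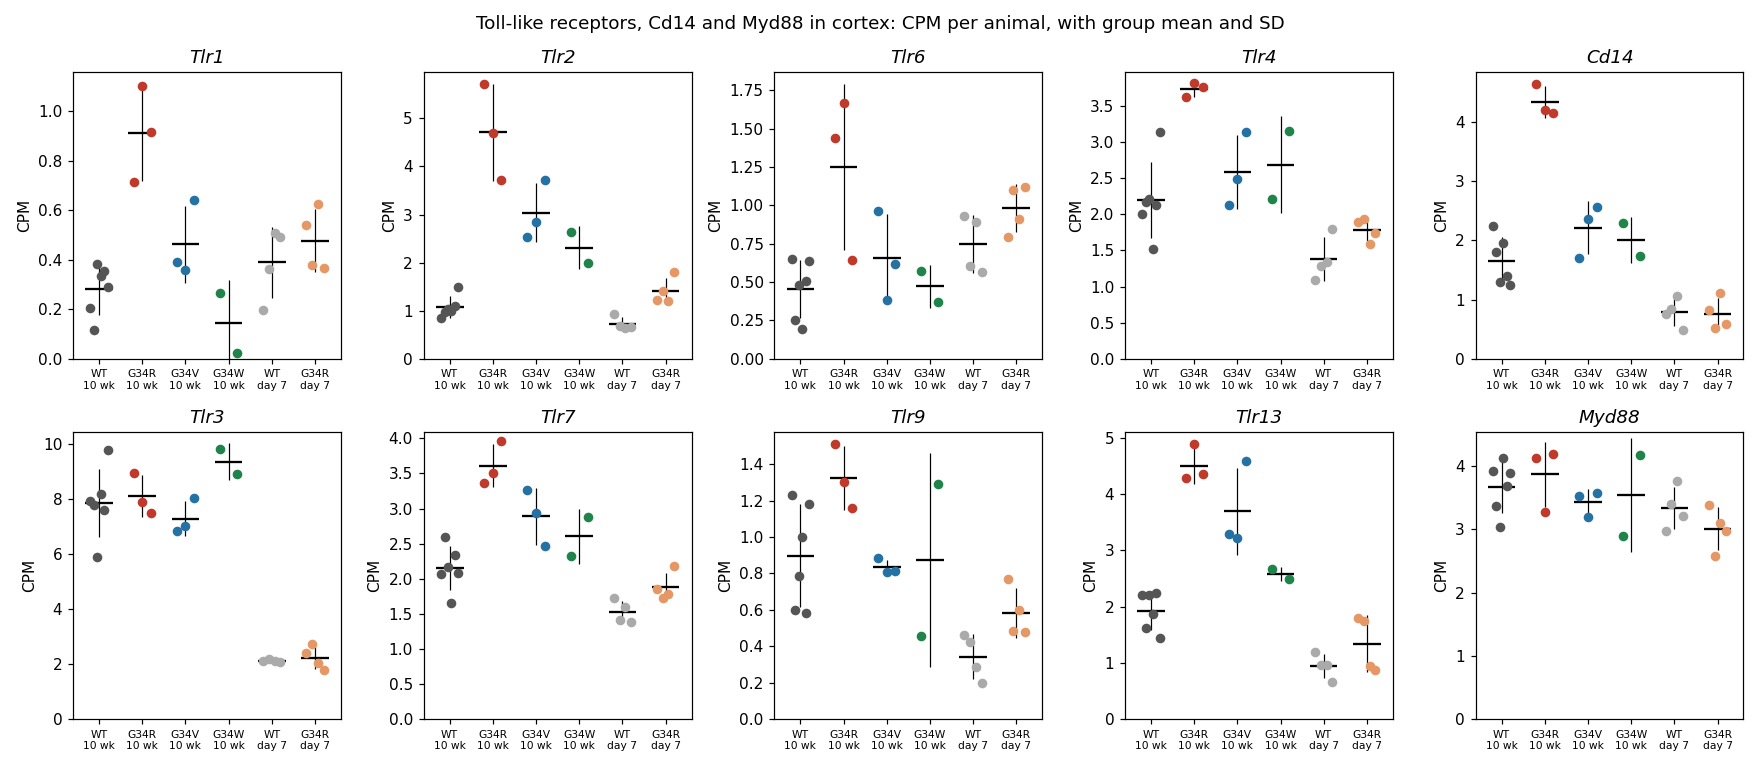
CPM of each gene in each of the 22 animals (points), with the group mean (bar) and SD (line), in 6 groups; each panel has its own linear axis from 0. The G34R animals at 10 weeks lie above all WT animals of that age for Tlr1, Tlr2, Tlr4, Cd14, Tlr7 and Tlr13, and overlap them for Tlr3, Tlr6, Tlr9 and Myd88.

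Tlr2, the shared partner of the lipoprotein receptors, had the largest difference. Its level in WT at 10 weeks ranged from 0.858 to 1.5 CPM with a median of 1.01. The 3 G34R animals had 5.71, 4.7 and 3.71 CPM, the 3 G34V animals 2.54, 2.85 and 3.72, and the 2 G34W animals 2.63 and 1.99. All 8 mutant animals lay above the highest WT animal, and G34R and G34V met only at their edge, since the highest G34V animal was level with the lowest G34R animal. In edgeR's quasi-likelihood test the log2 fold change from WT was 2.15 ± 0.19 in G34R (4.44-fold, adjusted p = 1.31e-06), 1.52 ± 0.19 in G34V (2.86-fold, adjusted p = 0.000102) and 1.11 ± 0.23 in G34W (2.16-fold, adjusted p = 0.0219). The G34R and G34V calls held under each alternative run. The G34W call was lost with limma-voom (adjusted p = 0.211), with the compared groups alone (0.0687), with animal-number runs as a block (0.267), with a block on the mitochondrial sets (0.0711) or within the high set (0.12), and without G34W replicate 1 (0.199), while the log2 fold change stayed between 0.83 and 1.31.

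Tlr1 and Tlr6 each pair with Tlr2 to bind bacterial lipopeptides. For Tlr1, WT at 10 weeks ranged from 0.115 to 0.381 CPM with a median of 0.311, and the G34R animals had 0.715, 1.1 and 0.915 CPM from 53, 39 and 37 counts. The G34V animals had 0.389, 0.359 and 0.642 CPM, and the G34W animals 0.267 and 0.0249, the last from 1 count. G34R stood clear of every other group, and the other groups overlapped in the order of their means. In G34R the log2 fold change was 1.66 ± 0.41 (3.16-fold, adjusted p = 0.0204 in edgeR's quasi-likelihood test).

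For Tlr6, WT ranged from 0.196 to 0.653 CPM with a median of 0.494, and the G34R animals had 1.44, 1.67 and 0.643. G34R replicate 3 thus lay within the WT range, and replicates 1 and 2 lay above it. From WT the Tlr6 difference was 1.49 ± 0.39 on the log2 scale (2.8-fold, adjusted p = 0.0311 in edgeR's quasi-likelihood test). The Tlr1 call was lost without G34R replicate 2 or 3 (adjusted p = 0.105 and 0.0755), and the Tlr6 call without G34R replicate 1 or 2 (0.148 and 0.16) or WT replicate 2 or 3 (0.0576 and 0.0519). Both were also lost with a block on the mitochondrial sets (0.055 and 0.0822), and the Tlr6 call within the low set (0.129). In G34V the log2 fold changes were 0.71 for Tlr1 (95% interval -0.14 to 1.56) and 0.54 for Tlr6 (-0.28 to 1.36), and neither was called.

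Cd14, which hands lipopolysaccharide to Tlr4 and also serves Tlr2, was higher in G34R. WT animals ranged from 1.24 to 2.24 CPM with a median of 1.6, and the G34R animals had 4.64, 4.21 and 4.15. All G34R animals lay above all other animals of the study, while G34V at 1.71, 2.36 and 2.57 and G34W at 2.29 and 1.74 overlapped WT. In G34R the log2 fold change was 1.38 ± 0.19 (2.61-fold, adjusted p = 0.000143 in edgeR's quasi-likelihood test), and it was called under each alternative run. In G34V it was 0.42 (95% interval 0.02 to 0.81, unadjusted p = 0.0533 and adjusted p = 0.332 in edgeR's quasi-likelihood test).

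Tlr4, the lipopolysaccharide receptor, differed less. WT animals ranged from 1.52 to 3.14 CPM with a median of 2.15, and the G34R animals had 3.62, 3.82 and 3.76. The G34R animals were close to each other and all above WT, but WT replicate 6 came near them. The log2 fold change was 0.77 ± 0.19 (1.71-fold, adjusted p = 0.0209 in edgeR's quasi-likelihood test), and the call was lost when any of the 3 G34R animals was left out (adjusted p between 0.0685 and 0.0722). In G34V the Tlr4 difference was 0.25 (95% interval -0.13 to 0.64), and in G34W it was 0.32 (-0.14 to 0.77), and neither was called.

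Among the endosomal receptors, Tlr13 and Tlr7 were higher in G34R and Tlr3 and Tlr9 were not called. Tlr13 binds bacterial ribosomal RNA in the mouse. WT animals ranged from 1.44 to 2.24 CPM with a median of 2.03, the G34R animals had 4.28, 4.89 and 4.35, the G34V animals 3.29, 3.21 and 4.58, and the G34W animals 2.67 and 2.49. Each mutant animal lay above the WT range, and G34V overlapped G34R but not G34W. Against WT the log2 fold change was 1.22 ± 0.16 in G34R (2.32-fold, adjusted p = 8.88e-05) and 0.93 ± 0.16 in G34V (1.91-fold, adjusted p = 0.00215 in edgeR's quasi-likelihood test), both called under each alternative run. In G34W it was 0.41 (95% interval 0.03 to 0.80, unadjusted p = 0.0516 in edgeR's quasi-likelihood test) and not called.

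Tlr7, a receptor of single-stranded RNA, had a smaller difference with little spread. WT animals ranged from 1.66 to 2.59 CPM with a median of 2.12, and the G34R animals had 3.37, 3.51 and 3.96. G34R did not overlap any other group, and the next group, G34V, had 3.27, 2.94 and 2.46. The log2 fold change in G34R was 0.75 ± 0.16 (1.68-fold, adjusted p = 0.00605 in edgeR's quasi-likelihood test), called under each alternative run, and in G34V it was 0.43 (95% interval 0.12 to 0.74, adjusted p = 0.16 in edgeR's quasi-likelihood test).

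Tlr9, a receptor of unmethylated CpG DNA, ranged from 0.584 to 1.23 CPM in WT with a median of 0.895, and the G34R animals had 1.51, 1.3 and 1.16. G34R replicate 3 lay within the WT range. The log2 fold change was 0.56 with a 95% interval from -0.01 to 1.13 and was not called. The G34W animals stood apart from each other at 0.458 and 1.29 CPM, so their mean says little.

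Tlr3, the receptor of double-stranded RNA, and Myd88, the adaptor that the other receptors share, did not differ from WT beyond the spread between animals. Tlr3 in WT ranged from 5.88 to 9.75 CPM with a median of 7.85, and the G34R animals had 8.93, 7.86 and 7.47. Myd88 in WT ranged from 3.03 to 4.13 CPM with a median of 3.79, and the G34R animals had 4.13, 3.28 and 4.2. All mutant groups overlapped WT for both genes. Log2 fold changes in G34R were 0.05 (95% interval -0.20 to 0.30) for Tlr3 and 0.08 (-0.20 to 0.36) for Myd88. The sign of each of these small values changed in some alternatives.

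In G34V, 2 of the 10 genes were called higher, Tlr2 and Tlr13, against 1.57% of tested genes called higher, and the same 2 had ranges above WT, as 4.22% of all tested genes did. In G34W, Tlr2 alone was called higher, against 0.568%, and Tlr2 and Tlr13 had ranges above WT. With 2 G34W animals such a separation is common, 7.35% of all tested genes, so the range of Tlr13 says little there. The median log2 fold change of the 10 genes was 0.42 in G34V and 0.26 in G34W. These 3 comparisons share the WT animals.

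**Figure D3:**
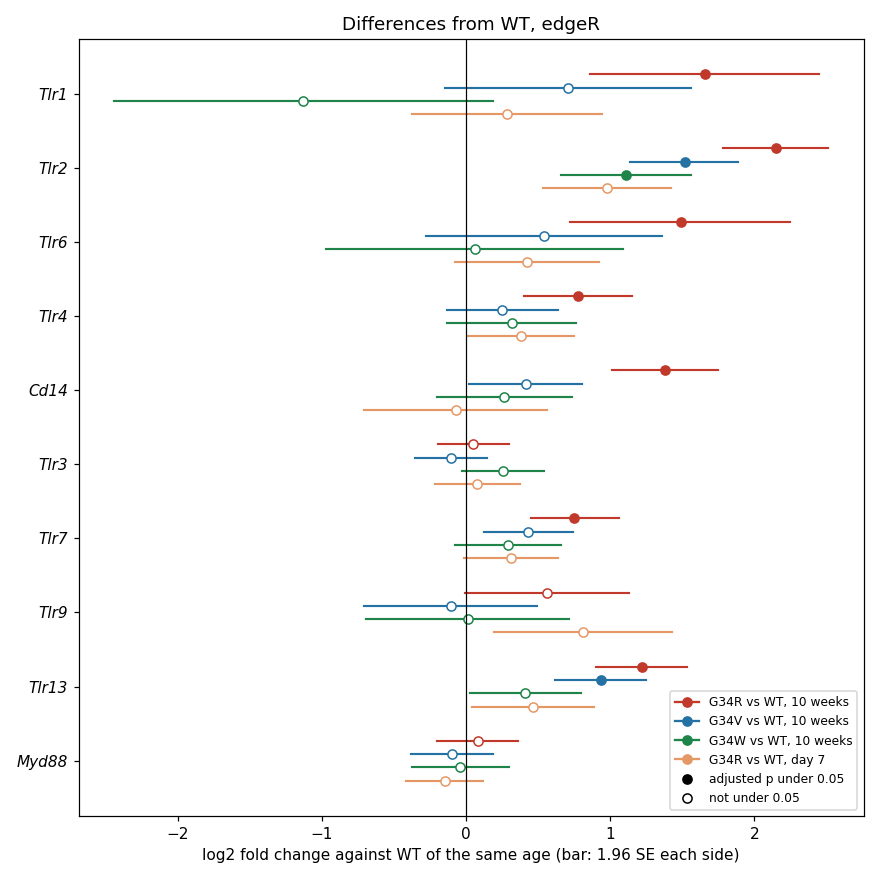
Log2 fold change from WT of the same age for each gene, with bars for the 95% interval, for G34R, G34V and G34W at 10 weeks and G34R at day 7; filled points have an adjusted p under 0.05. Tlr2 stands at 2.15, 1.52 and 1.11 in the 3 mutants at 10 weeks, while the intervals of Tlr3 and Myd88 include 0 in all of them.

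The mutants were then compared with each other. G34R lies in the low mitochondrial set and G34V and G34W in the high set, so substitution and set cannot be told apart between them. The mutant groups also share no run of animal numbers. Between G34R and G34V none of the 10 genes was called by edgeR's quasi-likelihood test, against 0.174% of tested genes called higher in G34R. DESeq2 and limma-voom each called 1, Cd14, and 3 of the 10 had an unadjusted p under 0.05. The share of all tested genes under that unadjusted cut is not given, here or for later counts of this kind. Totals called by DESeq2 and limma-voom are in the last section. The log2 difference of Cd14 was 0.97 ± 0.23, with no overlap of the animals (adjusted p = 0.103 in edgeR's quasi-likelihood test, 0.00712 in DESeq2 and 0.0177 in limma-voom). For Tlr2 the difference was 0.63 ± 0.22 (adjusted p = 0.29 in edgeR's quasi-likelihood test). All 10 genes had a positive difference between G34R and G34V, so the order of the 2 group means was the same throughout, with none past the threshold. Their median log2 difference was 0.577, beside -0.00242 over all tested genes.

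Between G34R and G34W, 3 of the 10 genes were called higher in G34R, against 0.939% of tested genes. They were Tlr1 (2.79 ± 0.69), Tlr2 (1.04 ± 0.26) and Cd14 (1.12 ± 0.27), with adjusted p of 0.0468, 0.0468 and 0.0423 in edgeR's quasi-likelihood test. The Tlr1 difference rests on the G34W animal with 1 count, and without G34W replicate 2 it was 1.75 (adjusted p = 0.197). The Cd14 call was lost when any of the 5 animals of these groups was left out (adjusted p from 0.0753 to 0.164 in edgeR's quasi-likelihood test). The Tlr2 call was lost without any of them except G34R replicate 3 (0.0811 to 0.181), and the Tlr1 call also without each G34R animal (0.0752 to 0.116). With only library 1 of WT replicate 3 the adjusted p was 0.0605 for Tlr1 and 0.0553 for Tlr2. DESeq2 called 4 of the 10, adding Tlr13 (adjusted p = 0.0152), and limma-voom called none. Between G34V and G34W none was called by edgeR's quasi-likelihood test, DESeq2 or limma-voom, against 0.0376% of tested genes called higher, and 3 had an unadjusted p under 0.05.

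Microglial markers moved with these genes. The sum of 10 homeostatic microglial markers, among them Cx3cr1, P2ry12 and Tmem119, was 367 ± 12.8 CPM in WT at 10 weeks (351 to 383), 554 ± 26.6 in G34R (539 to 585), 454 ± 51.4 in G34V (404 to 506) and 413 ± 28.1 in G34W (393 to 432). Of those 10 markers, 7 were called higher in G34R, 4 in G34V and 1 in G34W, against 2.92%, 1.57% and 0.568% of tested genes. In bulk cortex more cells of a type and more RNA per cell cannot be told apart. Of the markers of other immune cells, 1 was called in G34R. The 7 border macrophage markers summed to 12.4 CPM (10.8 to 14.5) in WT and 15.3 (13.4 to 16.7) in G34R, with Cbr2 called higher. The 8 monocyte and neutrophil markers summed to 3.9 CPM in WT (2.63 to 5.54) and 3.94 (2.87 to 4.98) in G34R, with Ly6g, the defining neutrophil marker, at 0 in both groups. Of 8 lymphocyte markers, 7 had means under 0.1 CPM in both groups and Cd4 made up nearly the whole sum, 5.47 in WT (3.37 to 7.6) and 3.78 in G34R (3.24 to 4.55). The 6 oligodendrocyte markers summed to 4550 CPM (4120 to 5390) in WT, 3580 (3090 to 3980) in G34R, 3100 (2580 to 3370) in G34V and 3530 (2800 to 4260) in G34W, and the 5 choroid plexus markers to 455 (143 to 900), 589 (427 to 721), 653 (231 to 1020) and 99.6 (12.4 to 187). The 8 astrocyte markers summed to 5160 CPM (4760 to 5620) in WT, 5040 (4980 to 5110) in G34R, 5010 (4960 to 5070) in G34V and 5850 (5390 to 6320) in G34W, and 1 of them, Gfap, which reactive astrocytes raise, was called higher in each mutant. Gfap was at 128 ± 12.3 CPM in WT, 451 ± 17.4 in G34R, 229 ± 19.9 in G34V and 181 ± 10.9 in G34W. The part of these cell types in the results was not tested.

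To set each gene beside the microglial level, its CPM was divided by the summed CPM of the 10 microglial markers, as a description with no test. In G34R, 4 of the 10 genes had ratios above the whole WT range, Tlr1, Tlr2, Cd14 and Tlr13, against 0.803% of tested genes. For Tlr2 the ratio was 0.845 ± 0.145 CPM per 100 CPM of markers in G34R (0.689, 0.87 and 0.976) and 0.293 ± 0.0609 in WT (0.227 to 0.408), a 2.89-fold difference. For Cd14 it was 0.782 ± 0.0111 and 0.452 ± 0.113, for Tlr13 0.815 ± 0.0882 and 0.523 ± 0.0825, and for Tlr1 0.166 ± 0.0413 and 0.0759 ± 0.027. Tlr4, Tlr6, Tlr7 and Tlr9 overlapped WT on this scale, with mean ratios 1.13, 1.84, 1.12 and 0.977 times those of WT. Tlr3 and Myd88 had ratios below all WT animals, at 0.68 and 0.697 times the WT mean, as did 66.6% of all tested genes. The marker sum in the denominator is higher in G34R, so a gene at its WT level has a lower ratio and nothing is read from these members.

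In G34V the ratios of Tlr2 (2.28-fold) and Tlr13 (1.55-fold) lay above the WT range, against 0.629% of tested genes, and the ratio of Cd14 (1.09-fold) did not. Myd88 lay below the WT range at 0.758 times the WT mean, as did 32.2% of tested genes. In G34W the same pair lay above the range, Tlr2 1.91-fold and Tlr13 1.19-fold, against 2.5% of tested genes. Tlr2 and Tlr13 were thus the members with ratios above the WT range in every adult mutant group, and the mean ratio of Tlr13 was 0.815 in G34R and 0.81 in G34V. In G34W the 2 animals had Tlr13 ratios of 0.618 and 0.633, close to the WT maximum of 0.606, so the Tlr13 ratio says little in that group.

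**Figure D4:**
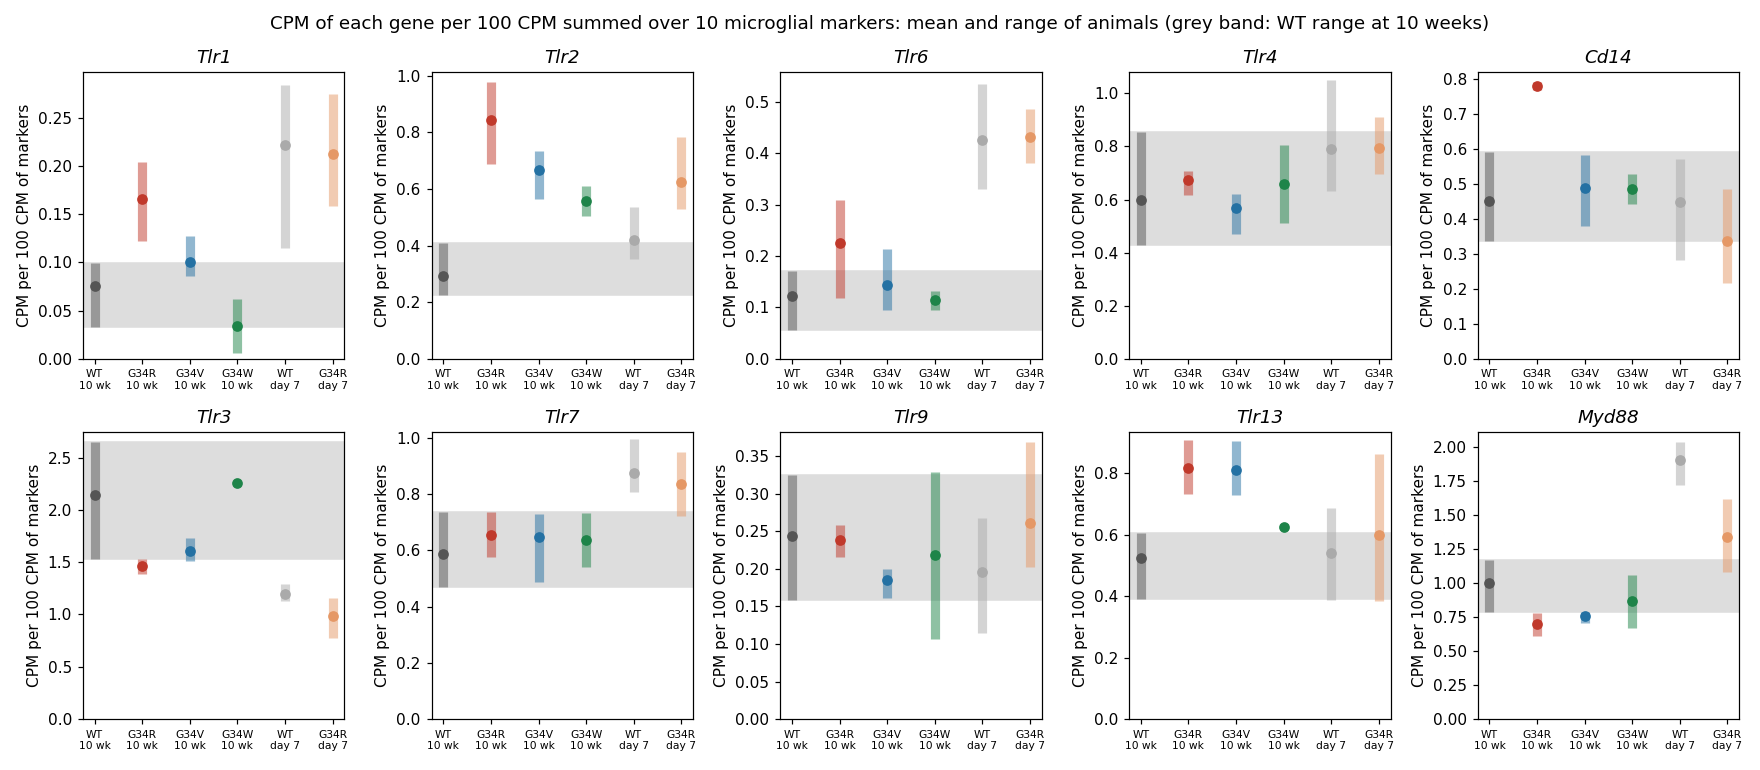
CPM of each gene per 100 CPM summed over 10 microglial markers, as the mean (point) and range (bar) of the animals in each group, with the WT range at 10 weeks as a grey band. Tlr1, Tlr2, Cd14 and Tlr13 of G34R at 10 weeks lie above the band, Tlr4 and Tlr7 overlap it, and Tlr3 and Myd88 of G34R lie below it.

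The rest of the pathway was read from lists of co-receptors, signalling proteins, inhibitors and induced genes. Calls in these lists stand beside 621 higher and 560 lower of 21288 tested genes in G34R. In G34V 334 were higher and 569 lower, and in G34W 121 and 227. Of the other Toll-like receptors, Tlr12 rose in G34R from 0.577 ± 0.178 CPM in WT to 1.17 ± 0.16 (log2 fold change 1.03, adjusted p = 0.0328 in edgeR's quasi-likelihood test). Tlr8 was at 0.132 ± 0.08 CPM in G34R and 0.195 ± 0.115 in WT and was not called, and Tlr5, at 0.175 CPM in WT, and Tlr11, with a mean of 0.0124, were too low to be tested at 10 weeks. Of 9 co-receptors and chaperones, 2 were called higher in G34R: Ly86, the partner of the receptor homologue Cd180, at 16.9 ± 2.24 CPM against 6.81 ± 0.711 in WT, and Unc93b1, which carries the endosomal receptors to their compartment, at 19.2 ± 2.3 against 10.3 ± 1.2. Their log2 fold changes were 1.32 and 0.90 (adjusted p = 2.66e-06 and 3.07e-05 in edgeR's quasi-likelihood test). Ly96, the partner of Tlr4, was at 0.491 ± 0.113 CPM against 0.384 ± 0.107 and was not called. In G34V, 1 of the 9 was called, Ly86 (0.76).

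Of 28 adaptors, kinases and transcription factors, 4 were called higher and 1 lower in G34R, and the list's median log2 fold change was 0.06. With 560 of 21288 tested genes called lower in G34R, nothing is read from the 1 lower gene of this list. Irf8, a macrophage and microglial transcription factor, rose from 4.29 ± 0.336 to 10.4 ± 1.21 CPM (1.28). Irf7, which drives type I interferon genes, rose from 1.74 ± 0.369 to 4.61 ± 1.61 (1.42), and Pik3ap1, which links these receptors to phosphoinositide kinase, from 2.14 ± 0.522 to 3.97 ± 1.07 (0.91). Ticam2, the sorting adaptor of Tlr4, was the fourth at 1.68, from 0.263 CPM in WT, and Irak1, a kinase shared by the Myd88 route, was the 1 that fell, from 26.2 ± 1.95 to 21.4 ± 0.385 CPM. The 4 higher members thus included an adaptor and a pair of interferon regulatory factors. No kinase of the list and no NF-kappaB subunit was called higher by edgeR's quasi-likelihood test. DESeq2 and limma-voom each called 6 of the 28, and 11 had an unadjusted p under 0.05, so a split between kinds of gene is not shown. In G34V, 3 of the 28 were called, all higher: Irf8 (0.74), Irf3 (0.39) and Chuk (0.26).

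Of 9 inhibitors, 2 were called higher in G34R, Cd300a (0.88) and Inpp5d (0.69), both also known as microglial genes, and in G34V Inpp5d alone (0.41). Of 20 genes that receptor ligands induce in macrophages, 12 had enough counts to test, and in G34R 5 were called higher and 1 lower. The chemokines Cxcl10 and Ccl5 had the largest differences. Cxcl10 was at 2.03 ± 0.806 CPM against 0.22 ± 0.0963 in WT (log2 fold change 3.25). Ccl5 was at 0.389 ± 0.196 CPM against 0.0318 ± 0.0352 (3.54). Ccl5 reached at most 0.0924 CPM in WT and passed the count filter through mutant animals, mainly of G34R, so nothing is read from its call. Il1a, Icam1 and Cd86 were higher by 1.17, 0.63 and 0.68, and Nfkbiz, an NF-kappaB cofactor that ligands induce early, was lower at -0.72. Of the cytokines, Tnf (0.0139 CPM in WT and 0.196 in G34R) and Il6 (0.0261 and 0.0435) were too low to test, and Il1b at 0.58 ± 0.0981 CPM against 0.233 ± 0.135 was not called. In G34V, 2 of the 12 were called, Il1a (1.15) and Cxcl10 (2.08).

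In G34W none of the 60 tested genes in these 5 lists was called by edgeR's quasi-likelihood test or limma-voom, while DESeq2 called 2 and 11 had an unadjusted p under 0.05. Sensors of other families were read beside them. Of 17, 5 were called higher in G34R, 3 in G34V and 3 in G34W, against 2.92%, 1.57% and 0.568% of tested genes. Of the same 17, limma-voom called 4, 4 and 0. Clec7a, the beta-glucan receptor, had the largest difference, from 0.336 ± 0.125 CPM in WT to 7.6 ± 1.69 in G34R, 2.7 ± 1.61 in G34V and 2.12 ± 1.1 in G34W. Tmem173, the adaptor of cytosolic DNA sensing, was called in G34R (0.83) and G34V (0.71), Ddx58, a cytosolic RNA sensor, in G34R (0.83), Nlrp3 in G34R (1.45) and G34W (1.94), and Pycard in G34V (0.67) and G34W (0.94).

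**Figure D5:**
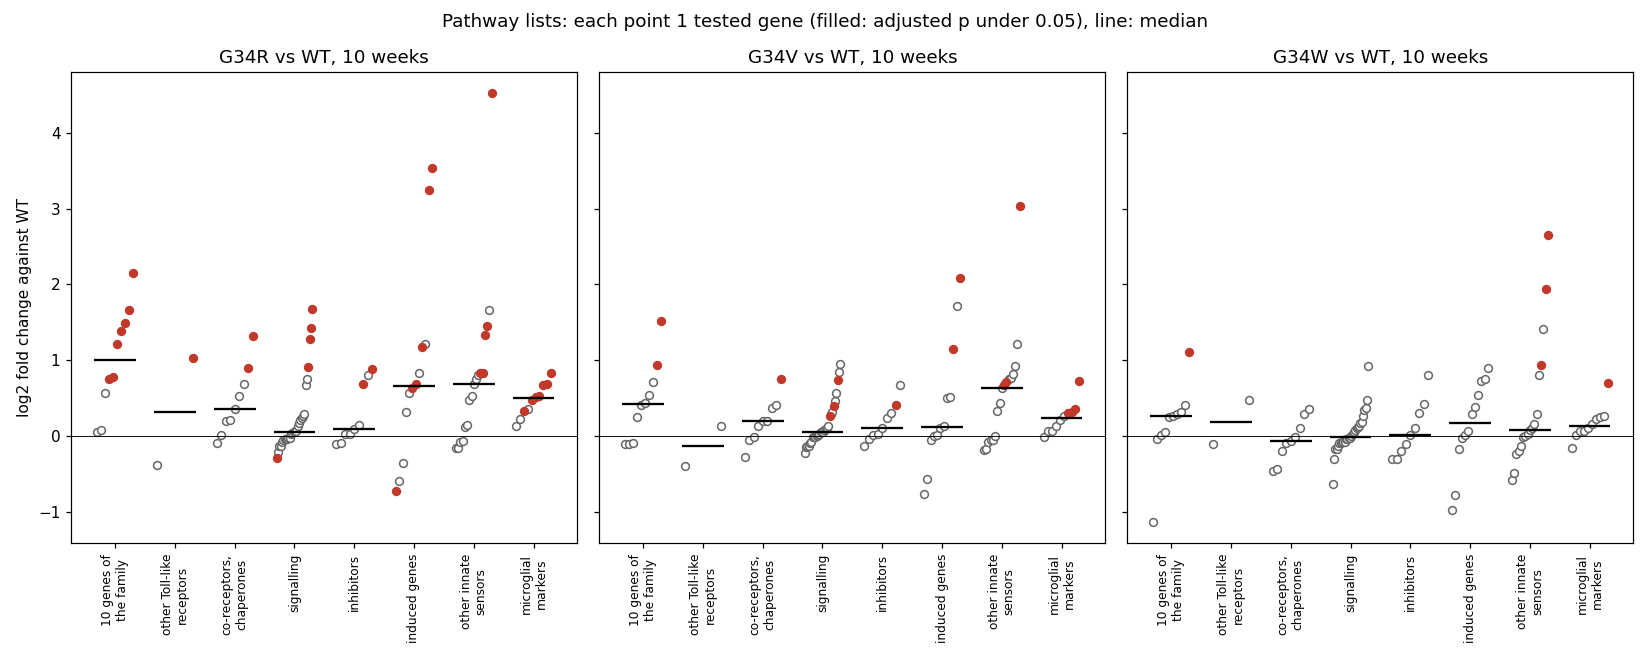
Log2 fold change from WT at 10 weeks of every tested gene in the family and in 7 lists of the pathway and of microglia, for each mutant; filled points have an adjusted p under 0.05 and the line is the list's median. In G34R the median of the 10 genes is 0.997 and that of the signalling list 0.06, and the highest point of the other sensors is Clec7a.

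At day 7 the comparison of G34R with WT used 4 animals each. None of the 10 was called by edgeR's quasi-likelihood test or by DESeq2, against 0.112% of tested genes called higher, while limma-voom called 1, Tlr2, and 2, Tlr2 and Tlr9, had an unadjusted p under 0.05. The same 2 had G34R ranges above WT, as 2.3% of all tested genes did. Tlr2 was at 0.928, 0.684, 0.649 and 0.666 CPM in WT and 1.23, 1.41, 1.2 and 1.8 in G34R. All 4 mutants lay above all 4 WT animals, with a log2 fold change of 0.98 ± 0.23 (adjusted p = 0.159 in edgeR's quasi-likelihood test and 0.0486 in limma-voom). Tlr9 was at 0.464, 0.422, 0.284 and 0.196 CPM in WT and 0.77, 0.482, 0.601 and 0.477 in G34R, from 10 to 30 counts an animal, with a log2 fold change of 0.81 ± 0.32.

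Cd14 and Tlr1, whose adult G34R animals lay above WT, overlapped WT at day 7. Cd14 was at 0.763, 0.845, 1.06 and 0.49 CPM in WT and 0.821, 0.516, 1.11 and 0.587 in G34R, a log2 difference of -0.07 (95% interval -0.71 to 0.56). For Tlr1 the difference was 0.28 (-0.37 to 0.94). For Tlr13 it was 0.465 (0.04 to 0.89, unadjusted p = 0.054 in edgeR's quasi-likelihood test), not called. Its G34R animals divided into 2 at 1.8 and 1.75 CPM, both male, and 2 at 0.938 and 0.88, both female, while the WT males had 1.19 and 0.966 and the WT females 0.954 and 0.666. Microglial markers were higher at this age too, with a sum of 226 ± 12.4 CPM in G34R (209 to 238) against 175 ± 6.86 in WT (169 to 185). Relative to that sum none of the 10 genes lay above the WT range, as 0.269% of tested genes did, and Tlr2 was at 1.49 times the WT mean with overlap. Myd88 lay below the WT range at 0.702 times the WT mean, as did 53.6% of tested genes.

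The difference of the G34R effects between the ages was tested as an interaction. Of the 10 genes, 2 passed, Cd14 (1.46 ± 0.35, adjusted p = 0.037) and Tlr2 (1.18 ± 0.29, adjusted p = 0.0416 in edgeR's quasi-likelihood test), against 0.562% of tested genes with a larger effect at 10 weeks. For Tlr2 it was lost in 18 of 26 alternatives, with values from 1.01 to 1.41, and for Cd14 in 13 of 26, with values from 1.28 to 1.70. For the other 8 genes the difference was not called, so a change with age in their G34R effect was not shown. The ages also share no run of animal numbers and differ in the sex of the animals. With males only the adjusted p was 0.116 for Tlr2 and 0.0717 for Cd14 in edgeR's quasi-likelihood test.

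In WT animals 7 of the 10 genes were called higher at 10 weeks than at day 7, against 33.3% of tested genes. No run of animal numbers held animals of both ages, so age and run cannot be told apart. Tlr3 had the largest difference, from 2.06 to 2.17 CPM at day 7 to 5.88 to 9.75 at 10 weeks (log2 1.89 ± 0.13, adjusted p = 5.21e-12 in edgeR's quasi-likelihood test). Tlr9 (1.42), Cd14 (1.07), Tlr13 (1.05), Tlr4 (0.64), Tlr2 (0.55) and Tlr7 (0.48) followed. Tlr1 (-0.49), Tlr6 (-0.74) and Myd88 (0.13) were not called. The Tlr2 and Tlr7 calls were lost with males only (adjusted p = 0.189 and 0.0599 in edgeR's quasi-likelihood test). The Tlr2 call was also lost without WT replicate 3 or 4 of day 7 (0.0551 and 0.052), and Tlr6 was called lower without WT replicate 1 or 6 of 10 weeks or replicate 4 of day 7 (0.031, 0.038 and 0.0477).

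The microglial marker sum itself went from 175 ± 6.86 to 367 ± 12.8 CPM between these ages. Relative to it, Tlr1, Tlr6, Tlr7 and Myd88 had lower ratios at 10 weeks than any day-7 animal, as did 68.8% of all tested genes, and Tlr3 had a higher one, 2.14 ± 0.366 against 1.2 ± 0.0639, as did 4.92%. Per length the order changed: at day 7 Myd88 led at 1.3 CPM per kilobase, Cd14 and Tlr3 were at 0.455 and 0.404, and Tlr9 was lowest at 0.0982.

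Across the 6 groups the genes fell in different orders. For Tlr2 the order was G34R, G34V and G34W at 10 weeks, then G34R at day 7, WT at 10 weeks and WT at day 7, with means of 4.7, 3.04, 2.31, 1.41, 1.07 and 0.732 CPM, and the G34W and day-7 G34R groups were the only neighbours that did not overlap. Tlr13 had the same order but for WT at 10 weeks, which lay above G34R at day 7. For Cd14 the order was G34R at 4.34 CPM, clear of G34V, G34W and WT at 10 weeks, which overlapped in turn, and then both day-7 groups, clear of WT at 10 weeks. For Tlr3 the 4 adult groups, at 7.28 to 9.34 CPM, stood clear of the day-7 groups at 2.1 and 2.23. For Tlr6 and Myd88 every neighbour in the order overlapped.

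Within the 14 adult animals the members followed each other to different degrees. Pearson's r of log2 CPM was 0.88 between Tlr2 and Tlr13, 0.808 between Cd14 and Tlr13 and 0.775 between Tlr2 and Cd14. These animals share groups that differ in level, so r describes mainly the groups and is given without a test. Among 18386 genes with a mean of at least 0.5 CPM, those most like Tlr2 were Lyz2 (r = 0.981), C4b (0.979) and Itgax (0.979). Those most like Tlr13 were Man2b1 (0.961), Plcg2 (0.957) and Lsp1 (0.955), and those most like Cd14 were Slco2b1 (0.948) and Gm15635 (0.932). Tlr3 and Tlr6 had no neighbour above 0.861, the highest being B3gntl1 for Tlr3 at 0.858 and Fau for Tlr6 at 0.861.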

How the data were processed

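The authors deposited counts per Ensembl gene for 23 libraries, with no normalisation in the values. The submitters' processing notes name Trimmomatic 0.32, STAR 2.3.0e, bedtools 2.27.1, featureCounts 1.4.4 and mm10. Neither the annotation release nor the strand setting is given in the sources used here. Positions and exon lengths come from GENCODE M21.

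Differential expression used edgeR 4.0.16 (quasi-likelihood, robust; R 4.3.3) with TMM scaling, filterByExpr and Benjamini-Hochberg adjustment over all tested genes: 21288 genes in the 14 animals at 10 weeks, 20461 in the 8 at day 7 with sex as a covariate, and 22432 in all 22 for age. The script was tested on simulated data. The SE is the absolute log2 fold change divided by the square root of F. An interval is 1.96 SE on each side, which is approximate and narrower than the test allows with few animals. Alternatives were RLE scaling, other filters, DESeq2 1.42.0, limma-voom 3.58.1, each library of WT replicate 3, compared groups only, runs of animal numbers as a block, sex, and each animal left out. The block on the mitochondrial sets and the fits within a set, which use libraries, were chosen after seeing the data.

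The genes and lists were chosen with earlier results of these data known. Beside all 10 genes, the naming rule took up to 3 genes per list, those of smallest adjusted p in G34R at 10 weeks, every other Toll-like receptor, and list genes called in 2 or more mutants; the most alike genes are the 3 with the highest Pearson correlation of log2 CPM (prior count 2), of which 1 for Cd14 is not reported here. Named outside it, after their values were seen, were Ticam2, Irak1, Irf3, Chuk, Icam1, Cd86, Nfkbiz, Ly96, Tnf, Il6, Il1b, Cbr2, Gfap, Ly6g and Cd4. Replicate numbers follow accession order and pair no samples.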

Additional observations from a re-analysis of the deposited data

Results flagged for a closer look

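In WT at 10 weeks the highest Tlr2 level, 1.5 CPM in replicate 6, stood far from the other 5 animals, which had 0.858 to 1.09. In WT at day 7 the highest Tlr2 level, 0.928 CPM in replicate 1, stood far from the other 3. These were 2 of 30 groups tested, where chance finds about 1 in 20. The difference of the G34R effect between ages was 1.18 for Tlr2 and 1.46 for Cd14 on the log2 scale, both larger at 10 weeks and past the threshold in edgeR's quasi-likelihood test.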

How the results depend on the processing

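Of 1570 alternative values for the 10 genes, 1447 kept direction and side of the threshold, 75 lost a call, 7 gained one and 41 changed sign, all of the last in genes not called. In G34R at 10 weeks the calls of Tlr2, Cd14, Tlr13 and Tlr7, and in G34V those of Tlr2 and Tlr13, held in all 21 alternatives. The Tlr1 call in G34R was also lost with only library 2 of WT replicate 3 (adjusted p = 0.0553 in edgeR's quasi-likelihood test), and with runs of animal numbers as a block for Tlr1 (0.111) and Tlr6 (0.0828). The 4 ratios above WT in G34R became 5 without G34R replicate 3 and 3 with only library 2. The cause of the changes below was not tested.

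Counts of genes called moved as follows. For G34V against WT (903) they were 412 with the animal-number block and 520 within the high mitochondrial set. For G34W (348) they were 903 with DESeq2, 32 with limma-voom, 140 with compared groups only, 69 with the animal-number block, 630 with sex, 127 with the mitochondrial block and 91 within the set. DESeq2 gave 264 and limma-voom 209 for G34R against G34V (49), 1113 and 90 for G34R against G34W (399), and 298 and 12 for G34V against G34W (32). At day 7 (63) they were 158 with no filter, 209 with DESeq2 and 154 with limma-voom. For the interaction (260) they were 453 with DESeq2 and 117 with males only. Leaving out 1 animal gave 689 to 1092 for G34R vs WT, 10 weeks (1181), 497 to 856 for G34V vs WT, 10 weeks, 86 to 590 for G34W vs WT, 10 weeks, 13 to 129 for G34R vs G34V, 10 weeks, 146 to 508 for G34R vs G34W, 10 weeks, 10 to 301 for G34V vs G34W, 10 weeks, 5 to 39 for G34R vs WT, day 7, and 133 to 281 for the G34R effect, 10 weeks minus day 7.

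Signs changed as follows. With the animal-number block, Myd88 was -0.0474 in G34R, Tlr3 0.0935, Tlr9 0.279 and Myd88 0.0979 in G34V, and Tlr6 -0.296 in G34W. Myd88 was 0.0198 with the mitochondrial block and 0.0181 within the set in G34V, and 0.0779 and 0.0765 in G34W. Tlr9 in G34W was -0.000626 with no filter, -0.103 with limma-voom, -0.053 with only library 2 of WT replicate 3 and -0.97 with sex. With limma-voom Tlr9 was 0.079 between G34V and G34W, Cd14 0.0196 at day 7 and Tlr3 0.0815 in the interaction, where Tlr9 was 0.083 with males only. Leaving out 1 animal, Tlr3 in G34R ranged from -0.0299 to 0.12. In G34W Tlr6 ranged from -0.261 to 0.358, Tlr9 from -0.973 to 0.517 and Myd88 from -0.342 to 0.182, and Myd88 between G34R and G34W from -0.107 to 0.421. Between G34V and G34W the ranges were -0.287 to 0.231 for Tlr4, -0.0428 to 0.346 for Cd14, -0.00209 to 0.313 for Tlr7, -0.635 to 0.864 for Tlr9 and -0.288 to 0.245 for Myd88. Cd14 at day 7 ranged from -0.322 to 0.133 and Tlr3 in the interaction from -0.134 to 0.0796. With 2 G34W animals, leaving out 1 assumes that the other varies as the other groups do. No paired analysis was possible because the replicate numbers were given in accession order and pair no animals; the block on runs of animal numbers compares animals within a run. The 1 count of Tlr1 in G34W replicate 2 leaves its level there poorly measured.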
